A study of Mus musculus with 16 samples.

Results

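Simple keratins and epithelial junction genes were described as a set of 8 genes: the keratin genes Krt7, Krt8, Krt18 and Krt19, the adhesion genes Cdh1 and Epcam, and the claudin genes Cldn6 and Cldn7. They were chosen by name, for high levels in cells derived from induced pluripotent stem cells (iPSCs), out of 19938 genes measured with a probe set of 1 symbol. Each of the 8 had 1 such probe set, and no gene was left out for a low level. RNA levels came from 16 Affymetrix arrays of mouse cells labelled as midbrain dopaminergic (mdDA) neurons, all of the mixed strain C57BL/6 x 129/Ola and of the genotype Pitx3GFP/+, in which 1 copy of Pitx3, a transcription factor gene of these neurons, carries green fluorescent protein (GFP). Per the design text, all cells were sorted for GFP. The treated group held 5 biological replicates of iPSC-derived cells differentiated with recombinant human WNT1, a Wnt ligand, and recombinant human DKK3, a secreted Dickkopf protein. The control group held 5 biological replicates differentiated without them. The other groups were primary cells of the ventral midbrain at embryonic day E13.5 and at E14.5, with 3 technical replicates each, so that each stage is 1 sample. The labels name no iPSC line, clone or culture, so a p-value reflects only how far these samples spread, which may be technical. GFP marks every cell in which the Pitx3 locus is active, which need not be a neuron.

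Keratins are the intermediate filament proteins of epithelia. A type II keratin such as Krt7 or Krt8 assembles with a type I keratin such as Krt18 or Krt19, and these simple keratins mark single-layered epithelia and the first epithelia of the embryo. Cdh1 encodes E-cadherin, the homophilic adhesion protein of the adherens junction, Epcam an adhesion molecule of epithelial and pluripotent stem cells, and Cldn6 and Cldn7 encode claudins, the strand proteins of tight junctions. Neurons build their filaments from neurofilament proteins and alpha-internexin and use other cadherins, so these 8 genes are not defining genes of dopaminergic neurons.

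The labelled cell type was compared with its markers first. Levels are log2 values after RMA normalization, a scale on which a difference of 1 is a doubling. Over all 35556 probe sets, array medians lay between 5.85 and 6.02 and lower quartiles between 4.32 and 4.70. Th, the gene of the rate-limiting enzyme of dopamine synthesis, was at 10.52 to 11.53 on the primary arrays and at 5.29 to 6.17 on the iPSC-derived arrays numbered 1 to 4, close to the array medians. The arrays numbered 5 stood apart, with Th at 9.22 on the treated and 8.52 on the control array and the dopamine transporter gene Slc6a3 at 8.87 and 8.44, against at most 5.27 on the other iPSC-derived arrays. Values without the arrays numbered 5 are therefore given for the 8 genes, and for other lists where their absence moved a count by more than 1.5 times. Pitx3, whose locus carries GFP, was at most 6.17 on the iPSC-derived arrays, close to the array medians, and at least 7.16 on the primary arrays. Unlike Th and Slc6a3, it did not set the arrays numbered 5 apart, with 6.06 on the treated and 6.16 on the control array. The files held no detection calls, so a low value could not be told from background. Pitx3 RNA was thus not shown to be above background in the iPSC-derived cells.

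The sequence before the start site was compared for the genes with an entry in the RefSeq promoter table (build GRCm38.p6), because the levels of the 8 genes moved together between arrays, as given below. The table held 6 of the 8 genes, Krt7, Krt8, Krt18, Epcam, Cldn6 and Cldn7, with 7 windows of 250 bases, since Cldn7 has a pair of start sites. Krt19 and Cdh1 were not matched. Krt8 and Krt18, which encode a filament pair, are neighbouring coding genes on chromosome 15. A window is shown for 5 of the genes, with each E2-box in capitals, the sequence CACCTG on either strand (CAGGTG on the other), which is known as the site of the Snail and Zeb repressors of Cdh1. The windows are Krt8 at chr15:102004343-102004592 (minus strand), Krt18 at chr15:102027966-102028215 (plus strand), Krt7 at chr15:101412153-101412402 (plus strand), Epcam at chr17:87635729-87635978 (plus strand) and Cldn6 at chr17:23679115-23679364 (plus strand), each printed 5′ to 3′ along its gene.
Krt8: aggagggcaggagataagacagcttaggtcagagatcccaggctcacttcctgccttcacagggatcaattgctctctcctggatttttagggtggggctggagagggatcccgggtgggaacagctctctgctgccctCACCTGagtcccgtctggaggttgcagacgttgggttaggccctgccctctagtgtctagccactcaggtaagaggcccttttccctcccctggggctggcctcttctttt
Krt18: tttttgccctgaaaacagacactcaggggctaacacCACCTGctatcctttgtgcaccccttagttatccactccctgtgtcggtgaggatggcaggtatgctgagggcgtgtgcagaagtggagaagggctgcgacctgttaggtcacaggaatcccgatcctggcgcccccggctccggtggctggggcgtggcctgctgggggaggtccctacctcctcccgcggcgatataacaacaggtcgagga
Krt7: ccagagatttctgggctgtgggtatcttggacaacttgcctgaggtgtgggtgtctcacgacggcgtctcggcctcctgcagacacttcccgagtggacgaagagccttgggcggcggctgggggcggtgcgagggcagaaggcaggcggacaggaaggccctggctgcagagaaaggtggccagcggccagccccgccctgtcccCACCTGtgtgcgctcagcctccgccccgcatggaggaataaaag
Epcam: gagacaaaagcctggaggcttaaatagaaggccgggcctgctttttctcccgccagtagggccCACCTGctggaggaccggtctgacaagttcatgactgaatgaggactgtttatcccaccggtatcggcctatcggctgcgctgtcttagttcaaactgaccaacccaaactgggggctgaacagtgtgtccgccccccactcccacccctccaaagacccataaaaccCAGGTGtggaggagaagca
Cldn6: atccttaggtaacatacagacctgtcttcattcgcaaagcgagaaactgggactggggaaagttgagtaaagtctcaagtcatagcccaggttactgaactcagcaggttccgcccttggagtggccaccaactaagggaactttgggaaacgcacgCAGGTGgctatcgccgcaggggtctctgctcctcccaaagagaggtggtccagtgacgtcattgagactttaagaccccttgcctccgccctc

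An E2-box was present in 6 of the 7 windows and in each of the 6 genes, against 17.2% of 32851 windows of the same length over all genes. Epcam had 2 matches, Krt7, Krt8, Krt18 and Cldn6 had 1 each, and for Cldn7 both matches lay before the second start site and none before the first. The GC box GGGCGG, searched on both strands, was present in 4 of the 7 windows against 32.7% of all windows, with 4 matches in Krt7 alone. The AP-1 site TGANTCA, the Grainyhead site AACCGGTT and the TATA box TATAAA, also on both strands, had 0 matches in the 7 windows and were present in 6.75%, 0.116% and 12.4% of all windows. None of these motifs overlaps another in the windows shown. A match describes letters, not binding. The median GC content of all windows was 52.4%, and that of the 7 windows lay between 51.2% and 66.0%.

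The type II keratin gene Krt8, which is among the first keratins made in the embryo, was at 10.98, 10.70, 11.54, 12.24 and 10.26 on treated arrays 1 to 5 and at 11.75, 10.68, 11.35, 12.07 and 10.37 on control arrays 1 to 5. On the primary arrays it was at 7.65, 6.82 and 7.78 at E13.5 and at 7.09, 7.21 and 7.41 at E14.5. Every iPSC-derived array lay above every primary array, array 4 was the highest and array 5 the lowest in each iPSC-derived group, and the treated and control values overlapped. The control mean was 11.24 ± 0.71 (SD, n = 5), the treated mean 11.14 ± 0.77 (n = 5) and the mean of the 2 primary stages 7.33. Krt8 was the only one of the 8 genes whose primary values all lay above the array medians. Krt7, a type II keratin of glands and ducts, ranged from 8.01 to 10.46 over the 10 iPSC-derived arrays and from 5.05 to 5.93 over the 6 primary arrays. The control mean exceeded the primary mean by 3.92 on the log2 scale for Krt8, or 15.1-fold, and also by 3.92 for Krt7. The primary levels of the other 7 genes lay near or below the array medians and were not shown to be above background, so for these the difference is that of the measured values and is given without a fold or an order.

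Krt18, the type I partner of Krt8, was at 10.47 on the lowest (array 5), 11.31 on the median and 12.50 on the highest (array 4) treated array, and at 11.99, 11.07, 11.69, 12.26 and 10.92 on control arrays 1 to 5. At E13.5 it was at 6.28, 5.96 and 5.55, and at E14.5 at 5.63, 6.46 and 5.58. The control mean exceeded the primary mean by 5.68. Krt19, a type I keratin that lacks most of the tail domain, had a difference of 5.24, with levels of 8.82 to 11.36 on iPSC-derived and 4.82 to 5.33 on primary arrays. Its control mean was 10.40 ± 0.79 (SD, n = 5) and its treated mean 10.13 ± 1.02 (n = 5).

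Cdh1, the E-cadherin gene, was at 9.36, 9.19, 9.98, 10.40 and 8.14 on treated and at 9.96, 8.94, 9.75, 10.23 and 8.26 on control arrays. Its primary values were 5.68, 6.06 and 5.69 at E13.5 and 5.96, 5.93 and 6.20 at E14.5, close to the array medians. Epcam was at 7.67, 7.81, 7.48, 8.03 and 6.08 on treated and at 8.22, 7.15, 7.32, 8.09 and 6.33 on control arrays. The arrays numbered 5 were the lowest for this adhesion gene in both groups. Primary Epcam values lay between 4.76 and 5.35. The control mean was higher than the primary mean by 3.51 for Cdh1 and by 2.36 for Epcam.

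Cldn7, a claudin of many simple epithelia, was at 9.06, 8.44, 9.65, 10.25 and 7.30 on treated and at 9.90, 8.29, 9.09, 9.84 and 8.14 on control arrays. The primary arrays held 6.20, 5.83 and 6.52 at E13.5 and 5.69, 5.51 and 6.20 at E14.5. The lowest iPSC-derived value, 7.30 on treated array 5, lay above the highest primary value of 6.52. Cldn6, a claudin of embryonic epithelia and stem cells, ranged from 6.80 to 8.96 over iPSC-derived and from 5.24 to 6.11 over primary arrays. Control means exceeded primary means by 3.06 for Cldn7 and by 2.22 for Cldn6.

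**Figure D1:**
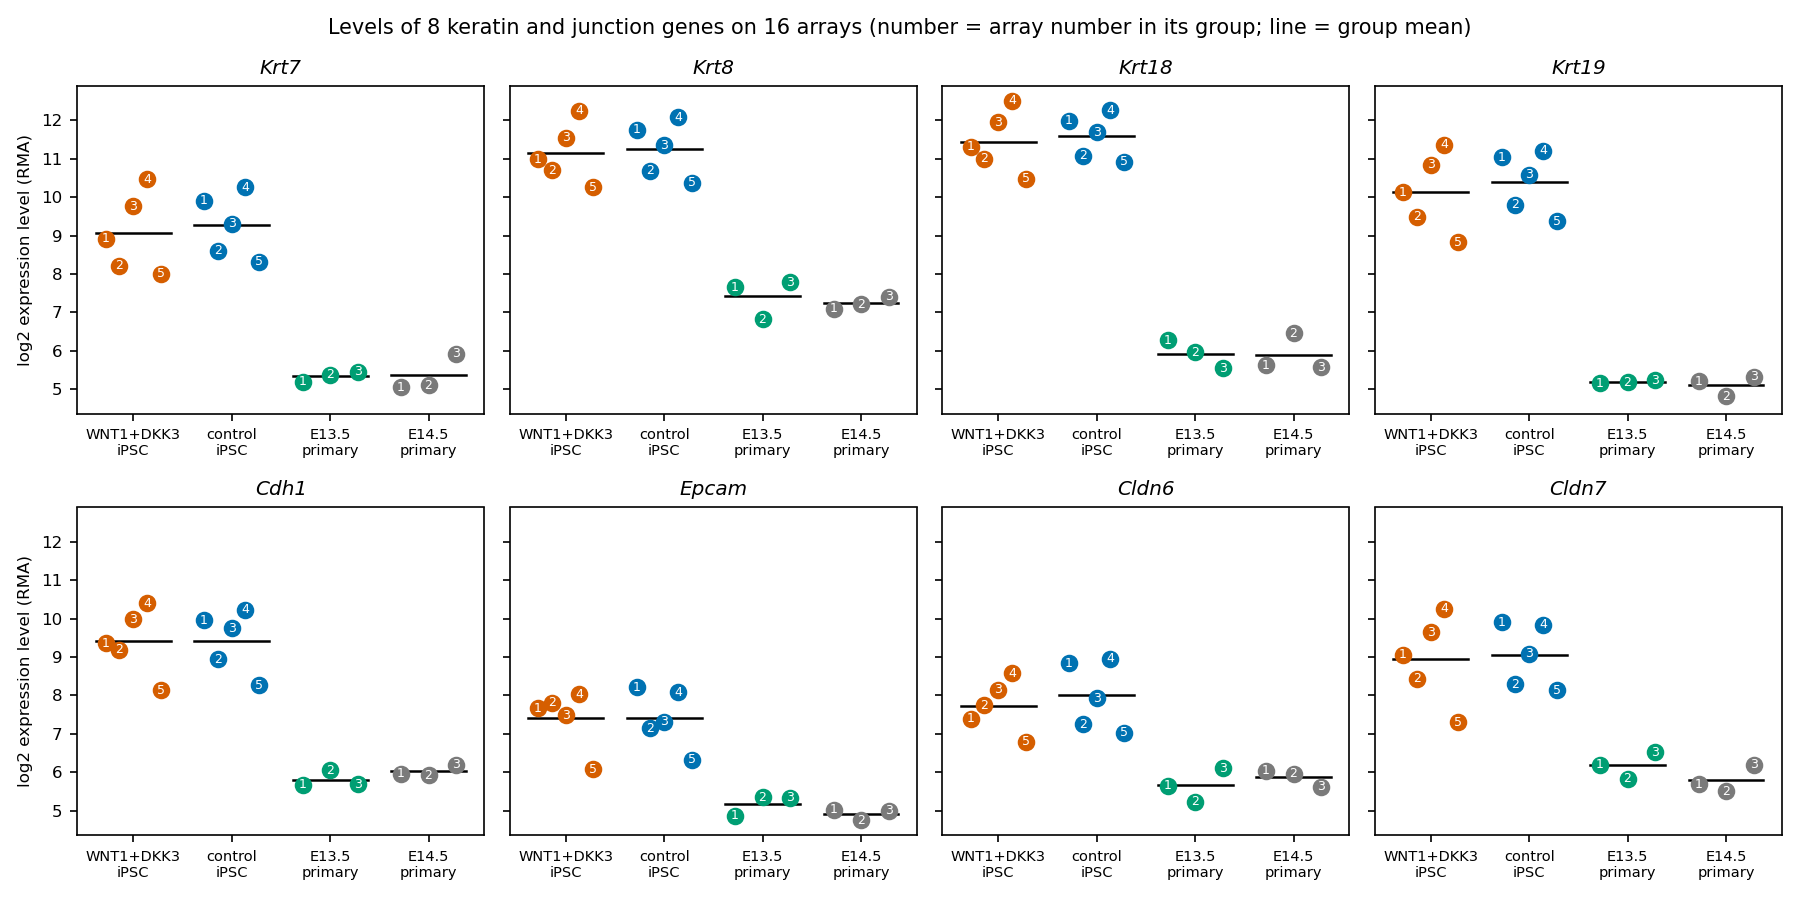
Log2 expression level (vertical axis) of the 8 genes on each of the 16 arrays, in 4 groups (WNT1 and DKK3 treated iPSC-derived, control iPSC-derived, E13.5 and E14.5 primary), with the array number in each point and a line at the group mean. In every panel the 10 iPSC-derived arrays lie above the 6 primary arrays, and within the iPSC-derived groups the arrays numbered 5 are the lowest.

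Over the 8 genes the median difference between control and primary means was 3.71 (2.22 to 5.68) and that between treated and primary means 3.60 (1.96 to 5.53), where the median over all genes was -0.11 and -0.088. Both comparisons use the same primary samples. All 8 genes had every iPSC-derived array above every primary array, as had 14.1% of all genes. The genes were chosen for this difference, so these values describe it and were not tested. Without the arrays numbered 5 the medians were 3.97 and 3.90. In RNA of a bulk sample, fewer cells of a type and less RNA per cell cannot be told apart.

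Between the stages the 8 genes lay close together. The E14.5 mean minus the E13.5 mean ran from -0.38 for Cldn7 to 0.23 for Cdh1, with a median of -0.057 against -0.0067 over all genes. With 1 sample a stage there was no test. A gene was counted where its stage means lay at least 1 apart with no overlap of the technical arrays, which held for 0 of the 8 genes, and for 0.176% of all genes with the higher level at E14.5 and 0.0652% with the lower. The technical arrays of the stages overlapped for each of the 8 genes, also with no minimum difference, where 9.68% of all genes did not overlap.

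The spread between iPSC-derived replicates was wide and shared. The stated choice of the genes did not name this spread, but it was made with earlier results of these data known. The SD within groups lay between 0.69 for Krt18 and 0.99 for Cldn7, with a median of 0.81 against 0.20 over all genes. Each of the 8 genes had a wider SD than at least 97.1% of genes, which were not matched for level. A wide spread was not particular to the 8 genes. Th had an SD of 1.62 in treated and 1.26 in control cells, and the pluripotency marker Dppa5a 2.19 and 1.98. Other listed genes varied less, such as the desmosome gene Perp at 0.21 and 0.17. Treated array 4 was the highest and treated array 5 the lowest treated array for 8 of the 8 genes, an arrangement seen for 8.76% of all genes. Among the controls, array 5 was the lowest for 8 of 8 (28.3% of all genes), array 4 was the highest for 6 (19.9% of all genes), and array 1 for the other 2, Epcam and Cldn7 (24.3% of all genes). Relative to each gene's own mean over the 10 arrays, the median of the 8 genes was 1.01 on treated array 4, 0.86 on control array 4 and 0.76 on control array 1. It was -1.22 on treated array 5 and -0.85 on control array 5. All 8 genes were also below their means on control array 2 (-0.71 to -0.27, median -0.49), where Th was at 5.74. Without the arrays numbered 5 the median SD of the 8 genes was 0.66 against 0.18 over all genes, so the wide spread did not rest on those arrays alone.

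**Figure D2:**
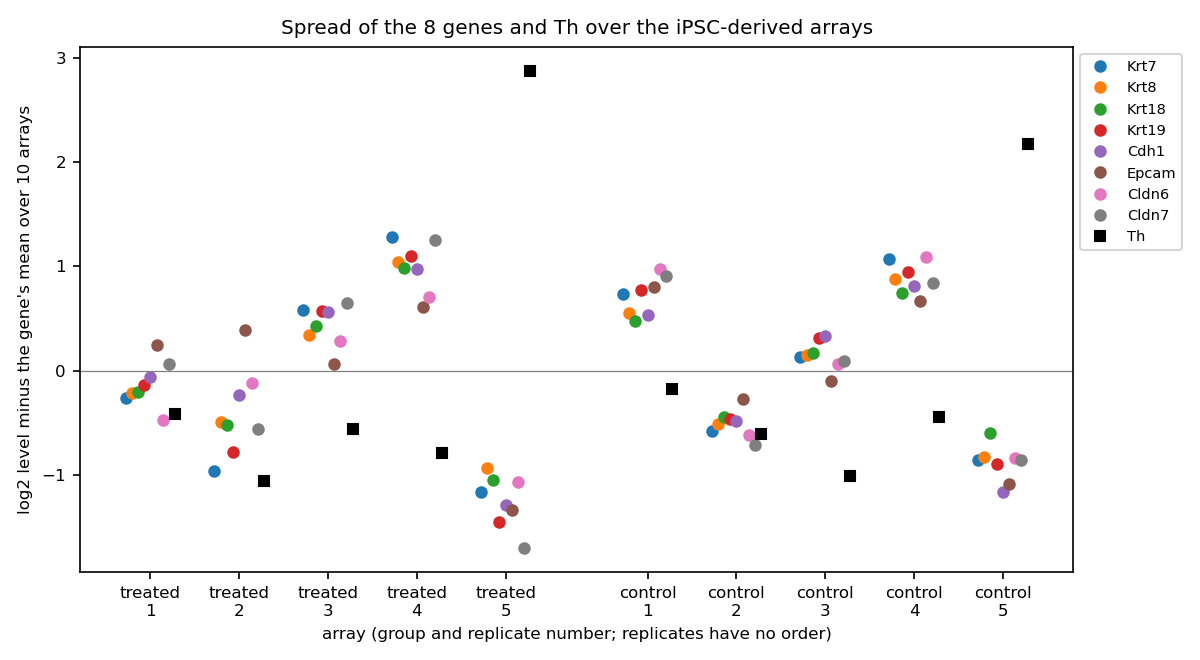
Log2 level of each of the 8 genes and of Th minus the gene's own mean over the 10 iPSC-derived arrays (vertical axis), by array (horizontal axis; replicates have no order). All 8 genes lie above 0 on treated array 3, control array 1 and both arrays numbered 4. They lie below 0 on both arrays numbered 5, where Th is high, and on control array 2, where Th is low (5.74). On treated array 2 they spread from -0.96 to 0.39.

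Genes of a like profile were found by the root mean square difference of centred log2 levels. Over all 16 arrays, the genes nearest to the mean profile of the 8 were Adgrg6 (0.21), Crip1 (0.22), Lgals3 (0.24), Mbnl3 (0.25), Pvr (0.26) and Nabp1 (0.29). Adgrg6 encodes an adhesion G protein-coupled receptor and Lgals3 galectin-3, a sugar-binding protein of epithelia and macrophages. Of the 8 genes themselves, Cdh1 (0.20) and Krt8 (0.21) were nearest to their own mean and Krt18 (0.98) farthest. Over 16 arrays these distances include the difference between iPSC-derived and primary cells for which the genes were chosen. In control cells that difference was 5.68 for Krt18, with a median of 3.71 over the 8 genes. The nearest genes over 16 arrays depend on it too. The nearest gene was Adgrg6 for Krt7 and Krt8, Nrk for Krt18 and Krt19, Mbnl3 for Cdh1, Tfap2c for Epcam, Erbb3 for Cldn6 and Sfmbt2 for Cldn7. Over the 10 iPSC-derived arrays alone, a choice made after seeing the values, the nearest to the mean profile were St14 (0.08), Plk3 (0.12), Arhgef3 (0.14), Tfap2c (0.14), Pik3cb (0.15) and Jade3 (0.15). St14 encodes matriptase, a membrane protease of epithelia, and was at 9.82 and 9.65 on treated and control arrays 4 and at 7.60 and 7.88 on arrays 5. Over these arrays Krt8 (0.12), Cdh1 (0.14), Krt18 (0.15) and Krt19 (0.16) were close to the mean of the 8 genes and Epcam (0.36) the least so.

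The comparison of treated with control cells asked whether WNT1 and DKK3 changed these genes. With limma, 0 of the 8 genes passed an adjusted p of 0.05, as did 0% of all genes, and 0 of the 8 had an unadjusted p under 0.05, against 1.5% of all genes (300 genes). The treated mean was below the control mean for 8 of 8 genes, with differences from -0.27 for Krt19 to -0.0058 for Epcam, each less than the spread between replicates. That of Krt19 had an SE of 0.50 and a 95% interval from -1.36 to 0.83, and the limma adjusted p was 1 for each of the 8 genes. That of Krt18 was -0.14, with an interval from -0.98 to 0.69, and that of Cdh1 -0.014, from -1.02 to 0.99. Krt7 was at -0.21, from -1.33 to 0.91, Krt8 at -0.10, from -0.99 to 0.79, Epcam at -0.0058, from -0.93 to 0.92, Cldn6 at -0.26, from -1.21 to 0.69, and Cldn7 at -0.11, from -1.30 to 1.08. The lower bounds of Krt7, Krt19, Cdh1, Cldn6 and Cldn7 lay below -1, so that a decrease of 2-fold was not excluded for these genes, and the upper bound of Cldn7 did not exclude an increase of 2-fold. The 8 genes were measured on the same arrays and share their spread, so their signs are not independent. Without the arrays numbered 5 the common sign was lost: Cdh1 was at 0.011, Epcam at 0.053 and Cldn7 at 0.069. The interval of Epcam then narrowed to -0.49 to 0.60.

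**Figure D3:**
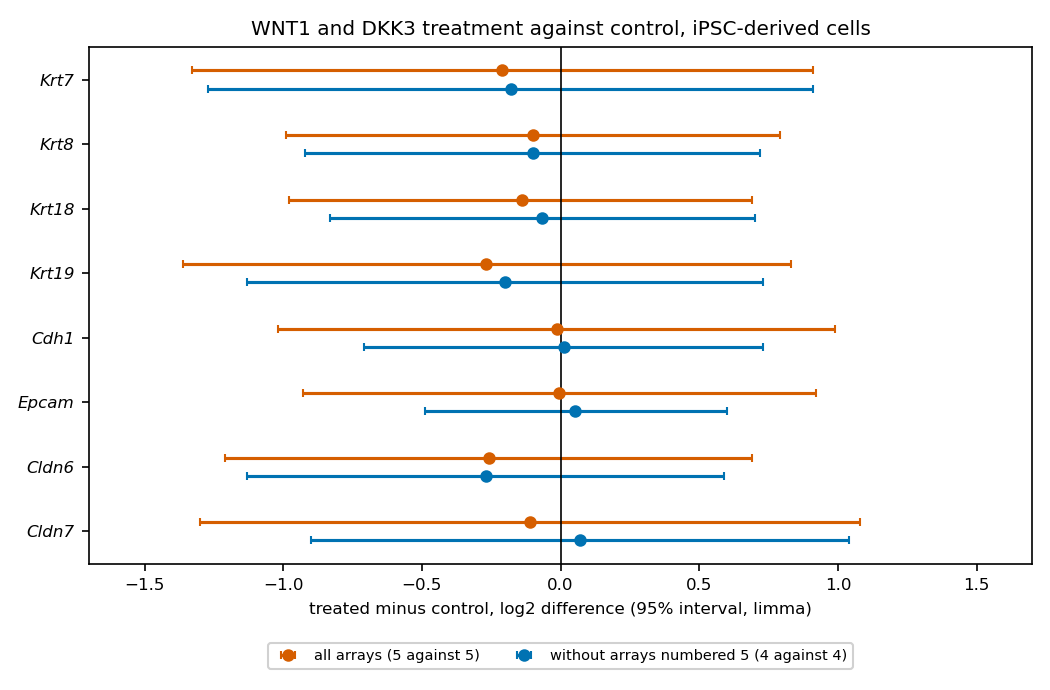
Treated minus control log2 difference (horizontal axis) of the 8 genes with the 95% interval from limma, for all iPSC-derived arrays (5 against 5) and without the arrays numbered 5 (4 against 4). All intervals include 0, and that of Epcam narrows to -0.49 to 0.60 without those arrays.

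Arrays of equal number did not show a common direction. Treated array 1 was below control array 1 for 8 of 8 genes, with differences of -1.44 to -0.55, and treated array 5 was below control array 5 for 8 of 8, with differences of -0.84 to -0.11. Treated array 3 was above control array 3 for 8 of 8, by 0.16 to 0.56, and treated array 4 was higher for 6 and treated array 2 for 5 of the 8. Nothing in the labels ties equal numbers to a shared culture.

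Other keratin, junction and epithelial genes were counted in 9 lists with 142 measured genes, drawn up by function with earlier results of these data known. With limma, 49 were higher and 22 lower in control than in primary cells and 71 did not pass, where 19.3% of all genes were higher and 22.5% lower. After centring each array on its median over the 19938 genes, 45 were higher and 34 lower, where 15.3% of all genes were higher and 44.3% lower. In treated cells 49 were higher and 18 lower (19.9% and 21.3% of all genes). After the same centring 43 were higher and 38 lower (15.3% and 44.1% of all genes). With the arrays numbered 5 left out, 61 were higher and 23 lower in control cells (22.5% and 23.6% of all genes) and 60 and 20 in treated cells (22.9% and 22.8%). Of 14 genes of keratin linkers and desmosomes, the junctions that anchor keratins, 6 were higher and 1 lower (median 0.96). Perp, a desmosome protein gene, was higher by 3.62 (SE 0.16, limma adjusted p = 1.4e-08), the plakophilin gene Pkp2 by 3.33 (SE 0.56, adjusted p = 0.0005) and the desmocollin gene Dsc2 by 3.17 (SE 0.67, adjusted p = 0.00235). The lower one was the plakophilin gene Pkp1 at -0.75, with means near or below the array medians (5.19 in control and 5.94 in primary cells). Here and below, genes that were the few lower ones of a list are named after their values were seen. Pkp2 was at 9.19 on both arrays numbered 4 and at 7.10 and 7.19 on the arrays numbered 5.

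Of 17 other claudins 6 were higher and 2 lower (median 0.10), against 19.3% and 22.5% of all genes. Cldn4, an epithelial claudin, was higher by 3.50 (SE 0.47, limma adjusted p = 8.7e-05), with levels of 9.72 ± 0.56 (SD, n = 5) in control and 9.45 ± 0.79 in treated cells. Cldn11, a claudin known from myelin and Sertoli cells, was higher by 2.90 (SE 0.85), but ran the other way between arrays, with 6.19 and 7.06 on arrays 4 and 9.43 and 9.86 on arrays 5. Its limma adjusted p was 0.0162, and 0.0847 and 0.0936 with E13.5 or E14.5 as the only primary sample. That of Cldn1, higher by 1.28, was 0.0382, and 8 of 17 alternatives ended the call. Cldn1 did not pass without control array 1 (0.0698), 2 (0.0653) or 5 (0.0550), or without both arrays numbered 5 (0.058). Nor did it pass after a further quantile normalization (0.071) or centring on the array median (0.0538). In treated cells Cldn1 was at 0.95 and did not pass (limma adjusted p = 0.11). The lower claudins were Cldn5 at -0.47 and Cldn18 at -0.42. Their means lay below the array medians in control (5.33 and 5.34) and primary cells (5.80 and 5.76). These claudins were thus not shown to be above background. Of 19 other tight junction and polarity genes 9 were higher and 3 lower (median 1.12). F11r, the gene of junctional adhesion molecule A, was higher by 3.72 (SE 0.41), Cgnl1 by 2.12 (SE 0.16) and Llgl2, a polarity gene, by 1.98 (SE 0.41). Cxadr at -1.41, Pard6a at -1.18 and Jam3 at -0.62 were lower.

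Of 20 adherens junction partners and other cadherins, 7 were higher and 8 lower (median 0.19), against 19.3% and 22.5% of all genes. Cdh5, the cadherin of endothelium, was higher by 3.27 (SE 0.29) and Vcl, which encodes vinculin, by 3.07 (SE 0.22), while Ctnna2, the alpha-catenin gene of neurons, was lower, at -3.08 (SE 0.26). Of 16 other intermediate filament genes 6 were higher and 4 lower (median 0.0062). Gfap, the astrocyte filament gene, was higher by 5.03 (SE 0.30), and the neuronal filament genes Ina and Nefm were at -5.00 (SE 0.68) and -4.55 (SE 0.26). Ina was at 8.64 and 8.29 on the arrays numbered 5 and at 6.16 and 5.87 on arrays 4, the reverse of the keratins.

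Of 15 other epithelial keratins, mostly of stratified epithelia, 1 was higher and 1 lower and 13 did not pass (median 0.25). Over all genes 19.3% were higher and 22.5% lower in control than in primary cells, or 22.5% and 23.6% without the arrays numbered 5. Krt15 was higher by 1.91 (limma adjusted p = 0.0483, and 0.00358 to 0.181 over 17 alternatives, 10 of which ended the call, among them leaving out treated array 1 or 3 or control array 1, 2, 3 or 4), Krt10 was lower at -0.41, Krt14 was at 1.81 (adjusted p = 0.0618) and Krt5 at 1.16 (adjusted p = 0.220). Without the arrays numbered 5, 4 of the 15 were higher, with Krt5, Krt14 and Krt20 added. Krt5 was at 7.62 and 7.51 on arrays 4 and at 5.19 and 4.89 on arrays 5. Of 17 epithelial transcription and splicing regulators 4 were higher and 2 lower (median 0.26): Tfap2c, a trophoblast and germ cell factor, by 2.27 (SE 0.53), Elf3 by 1.97 and Klf5 by 1.35 were the highest, and 11 did not pass. The lower ones were Klf4 at -0.72 and Ehf at -0.34. Without the arrays numbered 5, 7 were higher, with Grhl2, Esrp1 and Tfap2a added, and 1 lower, as Klf4 no longer passed (-0.62, limma adjusted p = 0.0502). Of 16 epithelial surface and protease genes 8 were higher and 1 lower (median 1.40), among them Anxa1 at 5.23 (SE 0.37), Anxa3 at 4.37 (SE 0.21) and Lgals3 at 3.59 (SE 0.49). The lower one was Cd24a, a surface glycoprotein gene also active in neurons, at -1.95. Of 8 repressors of Cdh1, 2 were higher and 0 lower, Snai1 by 1.87 (SE 0.21) and Twist1 by 1.68 (SE 0.41; limma adjusted p = 0.0752 with E14.5 as the only primary sample), and Tcf4 did not pass at -0.55 (limma adjusted p = 0.0845, and 0.0196 after centring each array on its median). When the arrays numbered 5 were left out, 2 repressors were lower, Tcf4 at -0.67 (limma adjusted p = 0.0124) and Zeb2 at -0.49 (0.0319). Tcf4 also passed without control array 5 alone (0.0298). The 4 higher regulators and 2 higher repressors with all arrays lay near the share over all genes. So did the 2 lower repressors without the arrays numbered 5.

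**Figure D4:**
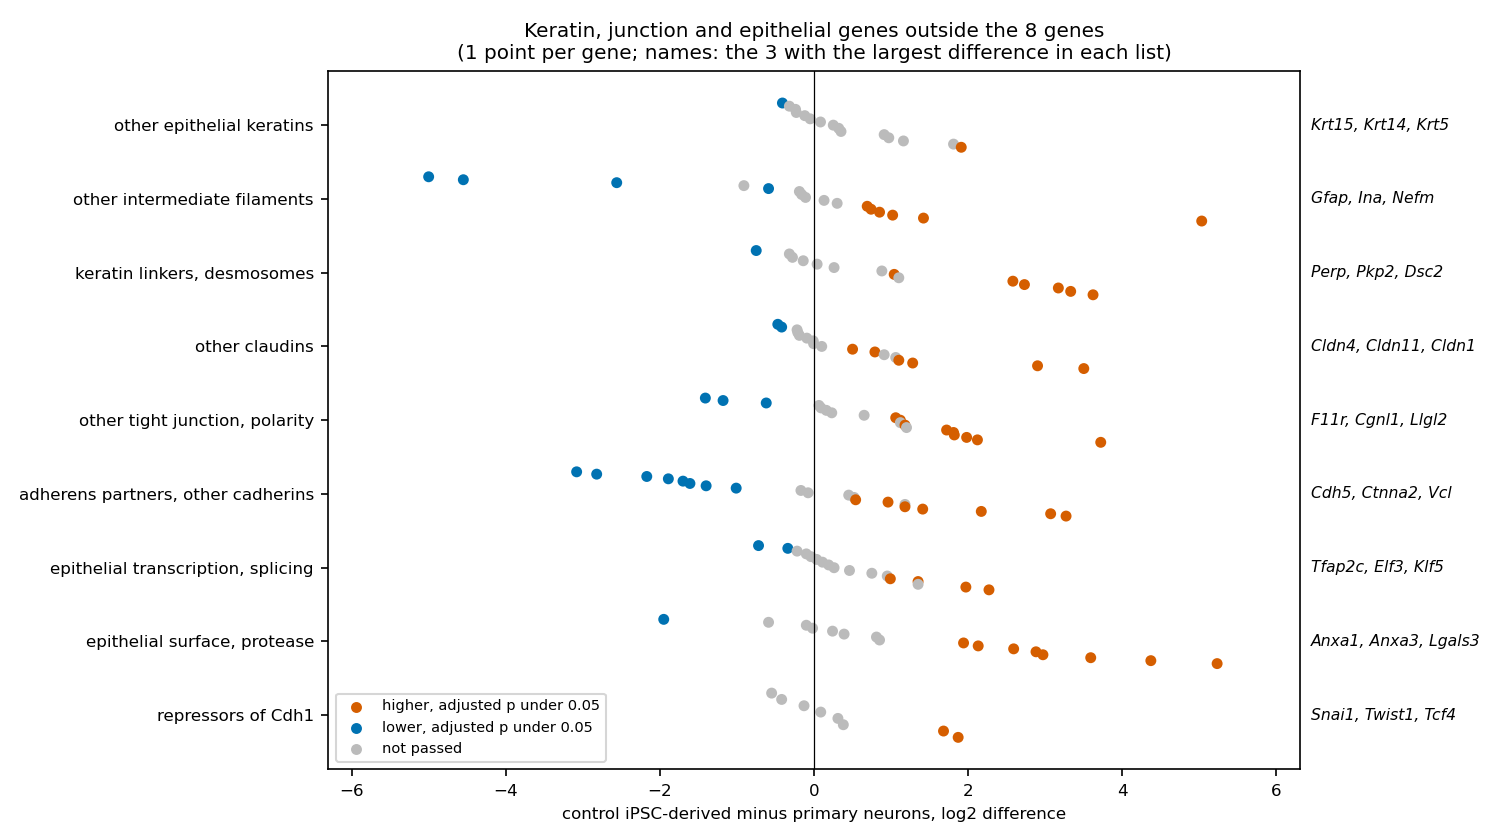
Control iPSC-derived minus primary log2 difference (horizontal axis) of 142 measured genes in 9 lists (rows), 1 point per gene, coloured by the limma adjusted p. Desmosome, tight junction and surface genes lie mostly above 0, with 6 of 14, 9 of 19 and 8 of 16 higher, and other keratins mostly near 0.

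The order of the treated arrays was shared by part of these lists. Treated array 4 was the highest and treated array 5 the lowest for 51 of the 142 genes, against 8.76% of all genes. By list this held for 11 of 16 surface and protease genes, 8 of 14 desmosome genes, 9 of 19 tight junction and polarity genes, 7 of 15 other keratins, 6 of 17 regulators, 6 of 20 adherens junction genes, 3 of 17 other claudins, 1 of 16 other filament genes and 0 of 8 repressors.

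Markers of cells that a GFP sort could hold were set beside this order as mean log2 levels per array. For the counts here and in the next paragraph, 19.3% of all genes were higher and 22.5% lower in control than in primary cells. Without the arrays numbered 5 these shares were 22.5% and 23.6%. Over 10 surface ectoderm and epidermis markers, of which Krt5, Krt14, Krt15, Perp and others also stand in the lists above, the mean was 7.34 to 7.36 on arrays 4, 6.09 to 6.21 on arrays 5 and 5.42 to 5.79 on primary arrays, and 3 of 10 were higher in control than in primary cells, or 6 of 10 without the arrays numbered 5. Over 9 measured trophoblast markers it was 6.78 to 6.82, 5.75 to 5.77 and 5.20 to 5.51, with 3 of 9 higher, among them Tpbpa at 4.28 and Tfap2c, also counted above. The other 6 did not pass, among them Cdx2 (-0.10), Elf5 (-0.22), Eomes (0.063) and Gata3 (0.11). In treated cells 2 of 9 were higher. Over 10 endoderm markers the mean was 6.54 to 6.56, 5.93 to 5.96 and 6.13 to 6.38, with 0 of 10 higher and 1 lower, Foxa1 at -3.36. Foxa1 had means of 6.75 in control and 10.11 in primary cells, the largest difference of this list. It raises the primary means given here. Over 10 mesothelium markers the means were 6.57 to 6.68 on arrays 4, 6.05 to 6.16 on arrays 5 and 5.87 to 6.05 on primary arrays. Of these 10 markers 2 were higher, Cav1 at 1.40 and Upk3b at 1.10, and 2 lower, Gpm6a at -1.31 and Muc16 at -0.32. Both counts lay near the shares over all genes. Muc16 had means of 3.61 in control and 3.93 in primary cells, below the array lower quartiles. Gpm6a was high in both, with means of 9.87 in control and 11.18 in primary cells, so it did not mark mesothelium alone. Without the arrays numbered 5, 4 mesothelium markers were higher, with Upk1b and Lrrn4 added.

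Other lists were ordered differently. Over 10 pluripotency markers the mean was 7.28 to 7.38 on arrays 4, 5.56 to 5.61 on arrays 5 and up to 8.66 on the other iPSC-derived arrays, and 0 of 10 passed, or 8 higher without the arrays numbered 5. Over 10 mesenchyme markers it was 8.65 to 8.80 on arrays 4 and 9.60 to 9.67 on arrays 5, and 10 of 10 were higher than in primary cells, Dcn by 5.68 and Postn by 5.16. Over 9 dopaminergic markers it was at most 6.04 on arrays 1 to 4, 7.51 to 7.87 on arrays 5 and 9.49 to 9.92 on primary arrays, with 9 of 9 lower. Over 10 neuronal markers it was at most 6.73 on arrays 1 to 4, 8.30 to 8.65 on arrays 5 and 10.16 to 10.58 on primary arrays, with 10 of 10 lower. Over 8 measured choroid plexus markers 4 were higher and 1 lower, led by Ttr at 6.67 and Folr1 at 2.17, with means of 7.35 to 7.48 on arrays 4 and 6.97 to 7.66 on arrays 5. The part of any of these cell types in the levels of the 8 genes was not tested.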

How the data were processed

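The data were log2 expression values of 35556 probe sets on 16 arrays, as deposited by the authors. RMA, a method of background correction, quantile normalization and probe summary, and Affymetrix Expression Console 1.2 are listed in the submitters' processing notes with no order. Per the labels' protocols, RNA was amplified with a Nugen whole-transcriptome kit. No source used here says whether the arrays were normalized in 1 run. The number of arrays limits the precision.

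Probe sets with 1 symbol in the platform's probe table (21789, of which 21698 were renamed through Entrez IDs with RefSeq, GRCm38.p6) were reduced to the one with the highest mean per gene. Technical arrays were averaged per stage. All 19938 genes were fitted in R 4.3.3 with limma 3.58.1, and a gene passed at a Benjamini-Hochberg adjusted p under 0.05: 10 iPSC-derived arrays for treated against control, and 12 samples in 3 groups, with 2 primary samples, against primary cells. The script was tested on simulated data. The 8 genes were not tested where they had been chosen.

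The members, lists and tests were chosen with earlier results of these data known. Named genes are the 8 genes, the 3 of each list with the largest difference between control and primary cells, the genes of the most like profile, Th, Slc6a3 and Pitx3 as a check of the labels, and up to 2 leading markers of a list; the text says where others were named after their values were seen. Pitx3 was at 5.60 to 6.17 on iPSC-derived and 7.16 to 7.74 on primary arrays. Motifs were chosen after the levels were seen. Alternatives left out replicates, the arrays numbered 5, a stage or the 25% of genes with the lowest level, or changed the scaling, probe summary, weights or block. The shared order of arrays was described without a test.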

Additional observations from a re-analysis of the deposited data

Results flagged for a closer look

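In groups of 5 arrays, 92 sets of values of named genes were searched for an array that stood far from the others. There were 7 such arrays, where chance gives about 1 in 20 for independent sets. Many of these genes moved together on the same arrays, so the sets were not independent and the count was not tested. Of the 7, 6 were arrays numbered 5. Epcam was at 6.08 on treated array 5, against at least 7.48 on the other treated arrays. Th was at 9.22 on treated array 5 (at most 5.93 on the others) and at 8.52 on control array 5 (at most 6.17). Slc6a3 was at 8.87 on treated array 5 (at most 5.22) and at 8.44 on control array 5 (at most 5.27). Klf5, an epithelial transcription factor gene, was at 8.48 on control array 5, against at least 9.04. Anxa3 was at 10.34 on treated array 4, against at most 9.81 on the other treated arrays.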

How the results depend on the processing

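For treated minus control, 0 of the 8 genes passed under each of 18 alternatives. With the replicate number as a block, limma called 1 gene of all, Mir17 (log2 difference 0.95), and 834 had an unadjusted p under 0.05; the block changed no call of the 8 genes. Across genes, the deviations of equally numbered treated and control arrays correlated at 0.0448 for number 1 and at 0.435 to 0.798 for the others, so the labels and the data did not settle a pairing. Signs turned with array weights for Krt7 (0.02), Krt8 (0.0031), Krt18 (0.017), Cdh1 (0.10), Epcam (0.049) and Cldn7 (0.17), and without the arrays numbered 5 for Cdh1 (0.011), Epcam (0.053) and Cldn7 (0.069). Leaving out 1 replicate gave -0.56 to 0.057 for Krt7, -0.38 to 0.12 for Krt8, -0.41 to 0.10 for Krt18, -0.58 to 0.058 for Krt19, -0.31 to 0.30 for Cdh1, -0.28 to 0.33 for Epcam, -0.51 to -0.024 for Cldn6 and -0.44 to 0.30 for Cldn7; the sign of Cldn6 turned in 0 of 18 alternatives. In control minus primary, listed genes numbered 46 to 56 higher and 21 to 23 lower when 1 replicate was left out, 61 and 23 without the arrays numbered 5, and in treated minus primary 45 to 57 and 17 to 21. Centring arrays on their medians moved the median of all genes from -0.11 to -0.30 in control minus primary and gave 45 higher and 34 lower listed genes (43 and 38 in treated minus primary); over all genes the higher share of calls fell from 46.2% to 25.6%. With E13.5 as the only primary sample, the median difference of the 8 genes was 3.72 in control and 3.67 in treated cells. With E14.5 alone it was 3.66 and 3.54. These fits hold 1 primary sample, so no count of listed genes is given for them. For the stages, 0 of the 8 genes was counted in each alternative.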
